A study of Mus musculus with 7 samples.

Results

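The RNA levels of 10 genes of the cytotoxic granule pathway, chosen by name, were examined in EMT6 mouse breast tumors: 7 granzymes, perforin, the granule protein Nkg7 and the granzyme inhibitor Serpinb9. All 10 were present among the 53465 genes of the count table. Cytotoxic lymphocytes kill target cells by releasing granules that hold the pore-forming protein perforin (Prf1) and a family of serine proteases, the granzymes, which enter the target and cleave its proteins. Granzyme B (Gzmb) cleaves caspases and their substrates, granzymes A and K (Gzma, Gzmk) are tryptases, and mice carry further granzymes (Gzmc, Gzmd, Gzme, Gzmf) beside Gzmb that are made by strongly activated lymphocytes. Nkg7 is a granule membrane protein of T and NK cells that takes part in granule release, and Serpinb9 is an intracellular serpin that inhibits granzyme B and is made by leukocytes and by some tumor cells.

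RNA was sequenced from whole tumors of EMT6, a mouse mammary carcinoma cell line, grown orthotopically in the mammary fat pad of female Balb/c mice aged 6 to 8 weeks after implantation of 500000 cells. The 3 EMT6-P (parental) tumors grew under an isotype control IgG, and the 3 EMT6-PTR tumors (αPD-L1 treatment-resistant, written PDR in the sample labels) and 1 EMT6-PTR metastasis grew under αPD-L1, in both cases at 250 μg per mouse every 3 days from the day after implantation until the endpoint. The resistant variant and the drug go together in the EMT6-PTR tumors and cannot be told apart, and the mice had their own immune cells. The labels do not say whether replicates came from separate mice, and the study calls its replicates technical unless it states otherwise, which it does not for this RNA. The p-values therefore measure the spread between these samples only, which may be technical.

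Total estimated counts ranged from 20430110 to 25213472 per library, and levels are given as CPM (counts scaled to a common library size) on an upper-quartile scale, where 3 counts corresponded to 0.117 to 0.167 CPM. The libraries of EMT6-PTR 3, EMT6-PTR 2 and the metastasis stood apart from the EMT6-P tumors. The first had 590 CPM summed over 4 epithelial genes that mark carcinoma cells, against 2090 to 2330 CPM in the other primary tumors. Krt8 and Krt18 were below all EMT6-P tumors there, while Krt7 and Epcam lay within the EMT6-P range. Its 3 fibroblast genes summed to 6660 CPM, against 2570 to 4120 CPM. Of these, Dcn (3345 CPM) and Pdgfrb were above all EMT6-P tumors, and Col1a1 (2755 CPM) was within their range. A single gene, CT010467.1, took 13.846% of the counts of EMT6-PTR 2 and at most 1.346% of any other library. The metastasis, labelled as breast tumor tissue with no site, had 8080 CPM over 5 lung genes, against 1.45 to 26.1 CPM in the primary tumors, and 2610 CPM over 4 neutrophil genes, against 10.1 to 46.9 CPM. Skeletal muscle genes summed to 2740 CPM in EMT6-PTR 1, to 491 and 259 in EMT6-P 1 and 3, and to at most 7.3 CPM in the other libraries. In bulk RNA of this kind, fewer cells of a type and less RNA per cell cannot be told apart.

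Gzmb, Gzmc, Gzmd, Gzme and Gzmf lie in 1 cluster on the minus strand of mouse chromosome 14 (build GRCm38, annotation GENCODE M21), in the order of transcription Gzmb (chr14:56258838-56262260), Gzmc (chr14:56231441-56234656), Gzmf (chr14:56205263-56211417), Gzmd (chr14:56129556-56132608) and Gzme (chr14:56117626-56120625). The start of Gzme is 141.6 kb beyond that of Gzmb. Gzma (chr13:113093825-113100981) and Gzmk (chr13:113171608-113225908) are neighbours on the minus strand of chromosome 13, and Serpinb9 (chr13:33003250-33017957) is on its plus strand. Prf1 (chr10:61297833-61304680) and Nkg7 (chr7:43437073-43438249) are on the plus strands of chromosomes 10 and 7. All are protein-coding genes, and a count covers the exons of the whole gene.

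The 250 bases before the RefSeq start site (GRCm38.p6) of the 5 cluster genes are shown because these neighbours had different levels in the same tumors, and those of Serpinb9 because the gene is compared with interferon-stimulated genes further on. Each is printed 5′ to 3′ on the strand of the gene, and capitals mark matches on either strand to 4 short motifs: Runx (TGTGGT, read as ACCACA on the other strand), the cAMP response element CRE (TGACGTCA), AP-1 (TGANTCA) and the interferon-stimulated response element (GAAA, any 2 bases and GAAA again, read as TTTC with TTTC on the other strand). A RefSeq start can differ from the outer end of the GENCODE gene, and the Serpinb9 window (chr13:33004291-33004540) lies inside its longest GENCODE model. The windows of the others are chr14:56262335-56262584 for Gzmb, chr14:56234658-56234907 for Gzmc, chr14:56211408-56211657 for Gzmf, chr14:56132594-56132843 for Gzmd and chr14:56120626-56120875 for Gzme.
Gzmb: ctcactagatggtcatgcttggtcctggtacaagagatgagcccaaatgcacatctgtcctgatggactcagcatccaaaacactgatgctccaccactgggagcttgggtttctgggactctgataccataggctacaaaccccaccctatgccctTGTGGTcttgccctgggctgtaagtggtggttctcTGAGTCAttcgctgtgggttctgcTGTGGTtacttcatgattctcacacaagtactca
Gzmc: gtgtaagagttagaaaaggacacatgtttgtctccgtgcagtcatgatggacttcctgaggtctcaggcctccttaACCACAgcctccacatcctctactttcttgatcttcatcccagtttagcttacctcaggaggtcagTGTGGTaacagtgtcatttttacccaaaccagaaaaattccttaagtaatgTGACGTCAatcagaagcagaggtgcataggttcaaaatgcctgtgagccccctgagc
Gzmf: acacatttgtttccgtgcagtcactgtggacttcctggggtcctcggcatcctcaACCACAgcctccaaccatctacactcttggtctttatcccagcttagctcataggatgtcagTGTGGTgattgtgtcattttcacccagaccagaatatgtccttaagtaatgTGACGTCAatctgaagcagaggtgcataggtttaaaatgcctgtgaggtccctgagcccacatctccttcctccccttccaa
Gzmd: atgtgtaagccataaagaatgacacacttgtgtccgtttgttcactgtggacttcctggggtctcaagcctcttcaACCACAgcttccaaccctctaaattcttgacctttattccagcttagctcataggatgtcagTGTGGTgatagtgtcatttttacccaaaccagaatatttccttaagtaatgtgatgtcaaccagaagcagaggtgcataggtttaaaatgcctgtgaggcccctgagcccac
Gzme: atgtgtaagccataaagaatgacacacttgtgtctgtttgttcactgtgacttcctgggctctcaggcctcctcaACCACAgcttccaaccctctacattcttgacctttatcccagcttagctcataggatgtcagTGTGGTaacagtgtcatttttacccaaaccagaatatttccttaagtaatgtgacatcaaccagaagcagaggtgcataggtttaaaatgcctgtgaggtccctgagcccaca
Serpinb9: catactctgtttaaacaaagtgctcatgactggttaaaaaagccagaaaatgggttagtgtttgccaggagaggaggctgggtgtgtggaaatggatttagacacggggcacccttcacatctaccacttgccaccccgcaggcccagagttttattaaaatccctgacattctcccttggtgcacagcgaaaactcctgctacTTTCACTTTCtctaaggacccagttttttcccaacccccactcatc

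Gzmd and Gzme were the most alike, with 94.8% identity over 251 aligned bases upstream, while Gzmc shared 80.9% with Gzme and 80.5% with Gzmd, and Gzmf shared 70.2% to 74.9% with those 3 genes. The Gzmb sequence was 43.8% to 47.8% identical to the other 4. Each of the 5 cluster genes held 2 Runx matches, a motif found in 14% of 32851 mouse promoter windows of the same length, and the Gzmb window alone also held an AP-1 match (6.75% of windows). The CRE (1.55% of windows) was found before Gzmc and Gzmf, and was absent as written from the otherwise similar windows of Gzmd and Gzme. Serpinb9 had 1 match to the interferon-stimulated response element, 46 to 37 bases before the start, and that motif was in 2.98% of windows. Among the other members, Gzma held the same element and a Runx match, Prf1 a Runx match, Nkg7 a Runx and a STAT match (TTCNNNGAA, 7.02% of windows), and Gzmk none of these motifs. These matches describe letters only, and binding was not measured.

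Per kb of transcript, so that genes could be compared, Serpinb9 had the highest median level of the 10 genes in EMT6-P tumors, at 19.4 CPM per kb. Gzme followed with 14.2, Gzmd with 6.62 and Gzmc with 3.27 CPM per kb, and Nkg7, Gzmb, Prf1, Gzmf, Gzma and Gzmk stood between 0.671 and 0.102 in that order. The 3 EMT6-P values separated Gzmd from Gzmc, Gzmc from Nkg7 and Nkg7 from Gzmb, while the other 6 of 9 neighbouring pairs in the order overlapped. In EMT6-PTR tumors Serpinb9 again had the highest median (19.5 CPM per kb), but that of Gzme was 2.55, that of Gzmd 1.68 and that of Gzmc 0.872, below Nkg7 at 1.00. All 9 neighbouring pairs overlapped there, since the EMT6-PTR tumors differed widely among themselves.

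**Figure D1:**
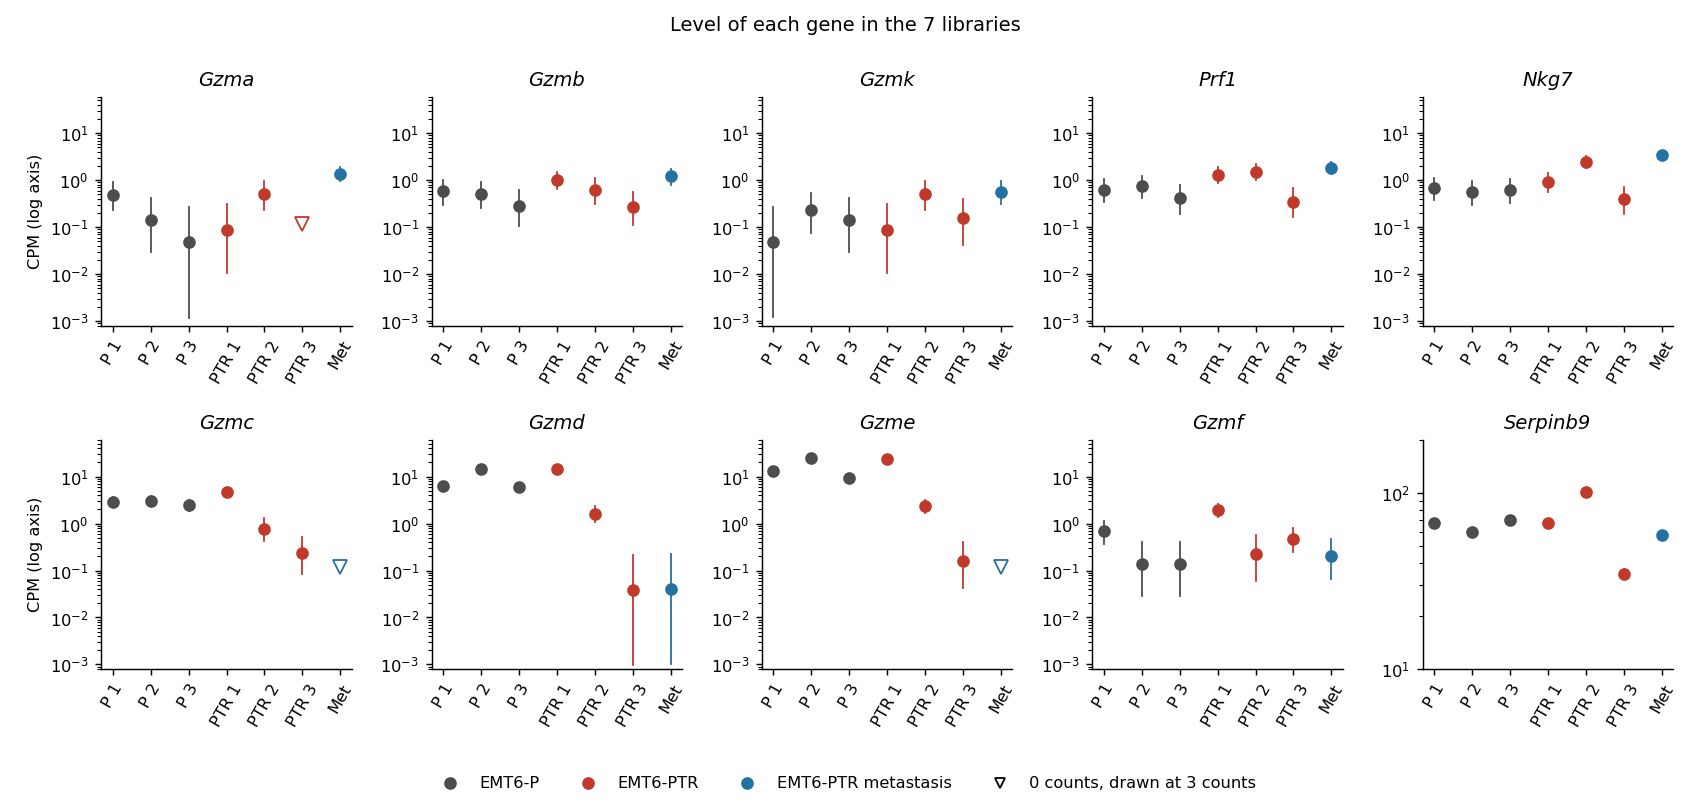
CPM (log axis) of each of the 10 genes in the 3 EMT6-P tumors, the 3 EMT6-PTR tumors and the metastasis (Met), with exact 95% Poisson intervals that cover counting error only. An open triangle marks 0 counts and is drawn at the level of 3 counts. Gzmc, Gzmd and Gzme were near EMT6-P levels in EMT6-PTR 1 and lower in the other EMT6-PTR libraries, while Serpinb9 (on its own scale) ranged from 34.7 to 101 CPM.

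Whether the cytotoxic granule genes differ between tumors resistant to αPD-L1 and parental tumors was tested across all 15645 genes that passed a filter on low counts. Of the 10 members 8 passed it, and Gzma and Gzmk, with 0 to 10 counts per primary tumor, did not. With p-values from edgeR's quasi-likelihood test, adjusted by the Benjamini-Hochberg method, 0 of the 8 members were called, and the background was also 0%, with a smallest adjusted p of 0.421 over all genes. At an unadjusted p under 0.05 there were 0 of the 8, against 11.4% of all genes tested. DESeq2 called 2.05% of its 13694 genes, and 0 of the 4 members for which it gave an adjusted p. For each of the 10 members the values of EMT6-P and EMT6-PTR tumors overlapped, whereas the groups did not overlap for 21.3% of all genes tested (9.52% higher and 11.8% lower in EMT6-PTR). The median log2 fold change was 0.24 over the 8 members and 0.025 over all genes tested. Given the spread among these tumors, the lack of calls does not show that levels were equal.

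Gzme, Gzmd and Gzmc carried most of the granzyme RNA in the parental tumors. Gzme was measured at 13, 24.9 and 9.48 CPM in EMT6-P 1 to 3 and at 24.3, 2.34 and 0.156 CPM in EMT6-PTR 1 to 3. EMT6-PTR 1 was thus as high as the highest parental tumor, EMT6-PTR 2 was 6.75-fold below the EMT6-P mean of 15.8 CPM, and EMT6-PTR 3, with 4 counts, was 101-fold below it. The group difference was −0.82 ± 1.34 on the log2 scale (SE, n = 3 per group; adjusted p = 0.812, edgeR's quasi-likelihood test), and its approximate 95% interval spanned 0.

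Gzmd had 6.38, 14.8 and 6.13 CPM in EMT6-P 1 to 3, and 14.8, 1.62 and 0.0391 CPM in EMT6-PTR 1 to 3. The last value was a single count, whose exact 95% interval was 0.000989 to 0.218 CPM. Again EMT6-PTR 1 matched the highest parental tumor and the other 2 EMT6-PTR tumors lay below all 3 parental tumors, for a log2 difference of −0.72 ± 1.38 (SE, n = 3 per group; adjusted p = 0.844, edgeR's quasi-likelihood test). Gzmd and Gzme transcripts are 90.0% identical, and 21.9% of the 50-base stretches of Gzmd and 20.6% of those of Gzme also occur in other granzymes of the cluster, so that the division of reads between them was estimated. The ratio of Gzmd to Gzme was 0.492 to 0.69 in the 5 libraries with enough counts, and the 2 genes counted as 1 gave a log2 difference of −0.79 (adjusted p = 0.826, edgeR's quasi-likelihood test).

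Gzmc, which shares 4.1% of its 50-base stretches with its relatives, followed the same order of tumors. Its level was even among EMT6-P tumors at 2.92, 3.08 and 2.45 CPM. In EMT6-PTR 1 to 3 it was 4.63, 0.780 and 0.234 CPM, the first above all parental tumors and the others 3.62-fold and 12.0-fold below their mean. The log2 difference was −0.58 ± 0.95 (SE, n = 3 per group; adjusted p = 0.812, edgeR's quasi-likelihood test). Without EMT6-PTR 1 the log2 differences were −2.51 for Gzmc, −3.52 for Gzmd and −3.72 for Gzme, and the adjusted p-values by edgeR's quasi-likelihood test lay between 0.212 and 0.246, while without EMT6-PTR 3 they were −0.048, −0.13 and −0.24. Limma-voom gave −1.55, −3.0 and −2.83, also without a call.

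**Figure D2:**
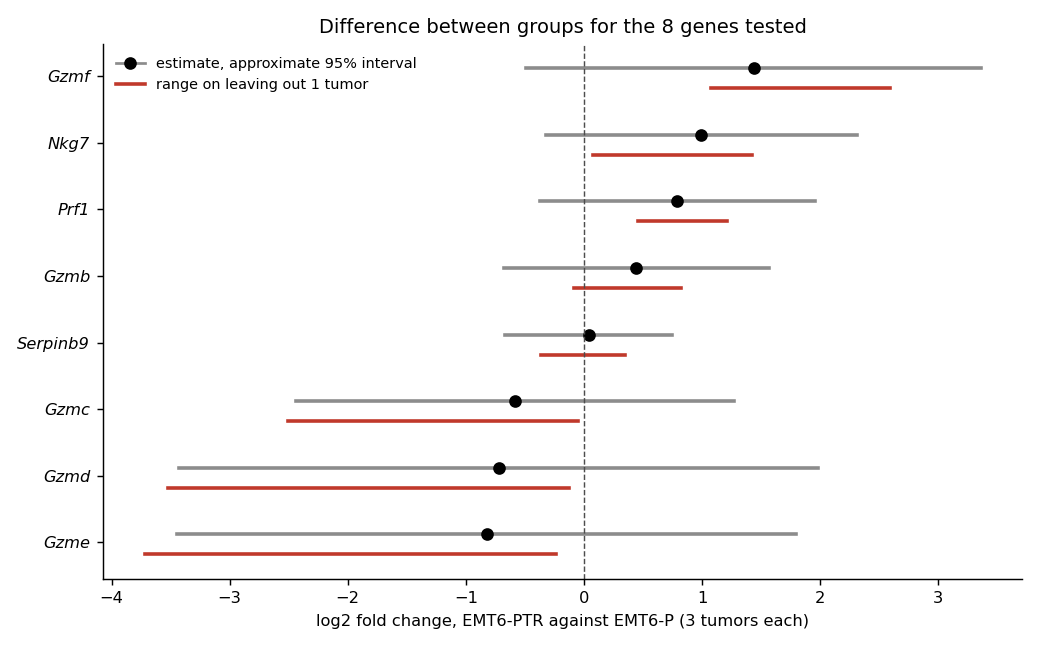
Log2 fold change of EMT6-PTR against EMT6-P (3 tumors each) for the 8 genes tested, with approximate 95% intervals in grey and the range obtained on leaving out 1 tumor at a time in red. All 8 intervals include 0, and the red ranges start near 0 and reach −2.51 for Gzmc, −3.52 for Gzmd and −3.72 for Gzme.

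Added together, a sum chosen after the values were seen, Gzmc, Gzmd and Gzme had 22.3, 42.8 and 18.1 CPM in EMT6-P 1 to 3, and 43.7, 4.73 and 0.43 CPM in EMT6-PTR 1 to 3. They made up 92.5% to 97.7% of the summed CPM of the 7 granzymes in the EMT6-P tumors and 93.4% in EMT6-PTR 1, but 72.0% in EMT6-PTR 2 and 32.4% in EMT6-PTR 3. The other cytotoxic members did not have this order of tumors: Gzma, Gzmb, Gzmk, Prf1 and Nkg7 summed to 2.44, 2.2 and 1.51 CPM in EMT6-P and to 3.4, 5.57 and 1.17 CPM in EMT6-PTR 1 to 3, highest in EMT6-PTR 2. The T cell receptor genes Cd3d, Cd3e and Cd3g, summed, were likewise highest in EMT6-PTR 2, at 7.24 CPM, against 1.54 to 2.24 CPM in EMT6-P and 1.7 and 1.13 CPM in EMT6-PTR 1 and 3. EMT6-PTR 2 was thus a tumor with more T cell RNA and less Gzmc, Gzmd and Gzme RNA than any parental tumor.

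**Figure D3:**
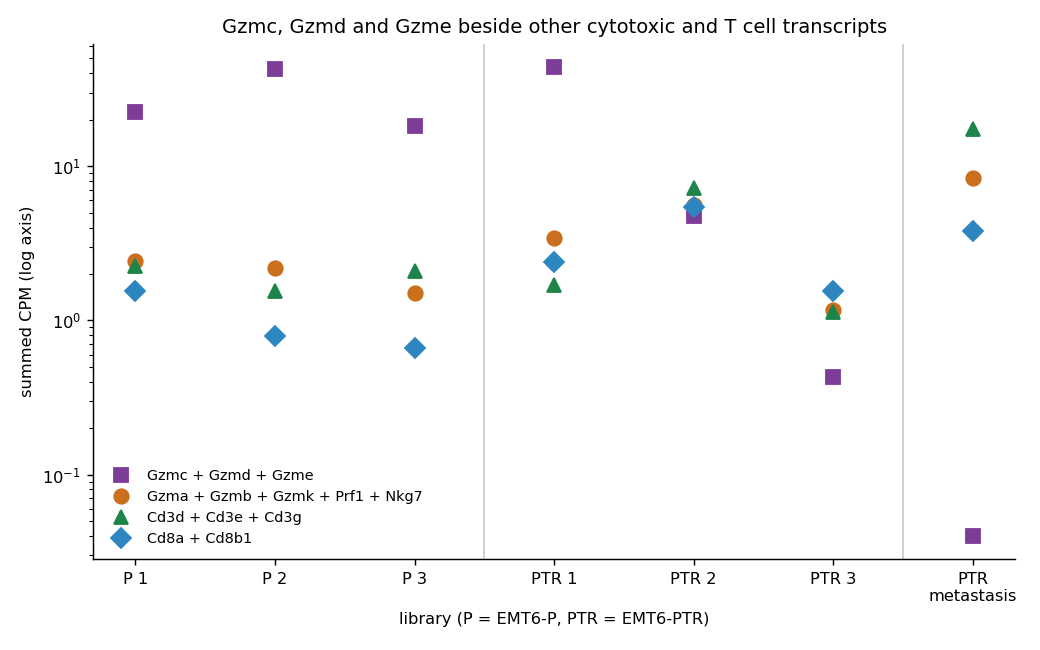
Summed CPM (log axis) by library for Gzmc, Gzmd and Gzme, for the other cytotoxic members, and for the Cd3 and Cd8 genes of T cells. The squares stand far above the other symbols in the EMT6-P tumors and EMT6-PTR 1 (18.1 to 43.7 CPM), just below them in EMT6-PTR 2 (4.73 CPM) and further below in EMT6-PTR 3 and the metastasis.

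Gzmf, which lies between Gzmc and Gzmd, had far lower levels and another order of tumors. Counts were 14, 3 and 3 in EMT6-P 1 to 3 and 44, 4 and 12 in EMT6-PTR 1 to 3, equal to 0.682, 0.140 and 0.141 CPM and to 1.92, 0.223 and 0.469 CPM. EMT6-PTR 1 was the highest library, as for Gzmc, but EMT6-PTR 3 was above 2 parental tumors. The log2 difference was 1.44 ± 0.98 (SE, n = 3 per group; adjusted p = 0.569, edgeR's quasi-likelihood test), from a gene just over the filter, which was no longer tested without EMT6-PTR 1. Of the granzymes outside the list, Gzmg and Gzmn of the same cluster had at most 0.140 CPM in any library. Gzmm, a granzyme of NK cells on chromosome 10, stood at 0.374 to 0.829 CPM in the parental and 0.446 to 0.742 CPM in the resistant tumors, with a log2 difference of 0.11 (adjusted p = 0.939, edgeR's quasi-likelihood test).

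**Figure D4:**
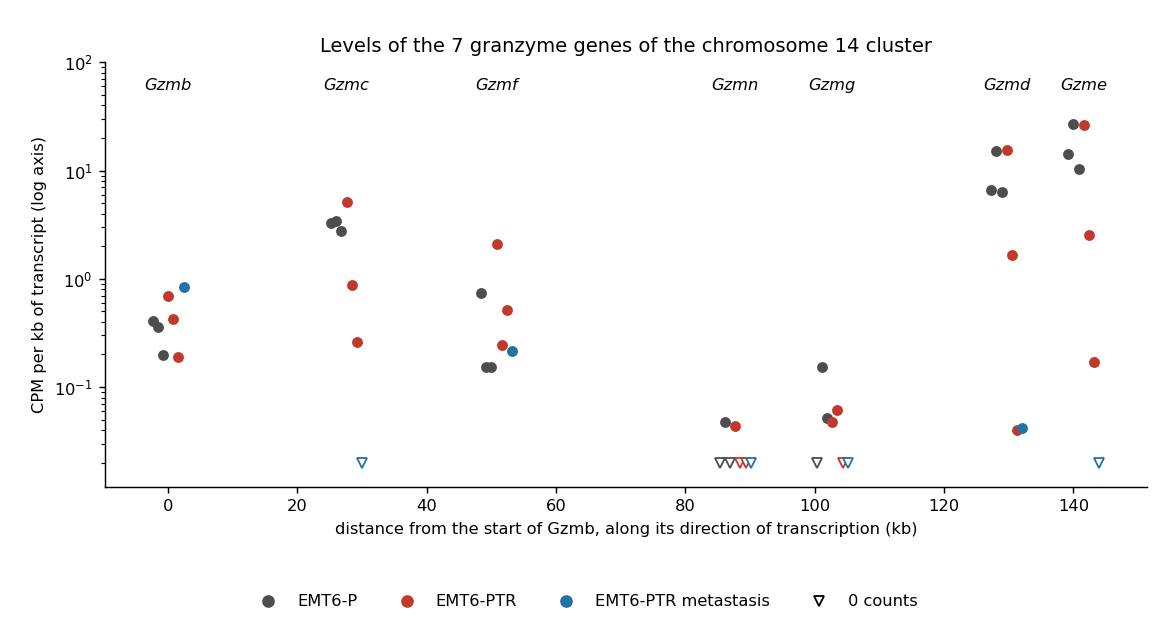
CPM per kb of transcript (log axis) of the 7 granzyme genes of the chromosome 14 cluster, against the distance of each start from that of Gzmb in kb. Within a gene, points are spread sideways by library, and open triangles at the foot of the axis mark 0 counts. Gzmd and Gzme, at the far end of the cluster, span the widest range between libraries, and Gzmb the narrowest of those detected in all 7.

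Gzmb was low in all tumors. It was read 12, 11 and 6 times in EMT6-P 1 to 3 and 23, 11 and 7 times in EMT6-PTR 1 to 3, or 0.585, 0.514 and 0.283 CPM and 1.00, 0.613 and 0.274 CPM. EMT6-PTR 1 was above and EMT6-PTR 3 just below all parental tumors, and the log2 difference was 0.44 ± 0.58 (SE, n = 3 per group; adjusted p = 0.756, edgeR's quasi-likelihood test). Without EMT6-PTR 1 it was −0.086. Relative to the Cd3 genes, the log2 ratio of Gzmb was −0.27, 0.11 and −0.96 in EMT6-P and 1.01, −1.79 and −0.32 in EMT6-PTR 1 to 3, a difference of 0.01 (exact two-sided permutation test, p = 1.0, where 3 against 3 tumors cannot give less than 0.1). The ratio was highest in EMT6-PTR 1 and lowest, among primary tumors, in EMT6-PTR 2.

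Prf1 and Nkg7 were each above all parental tumors in EMT6-PTR 1 and 2 and below them in EMT6-PTR 3. Prf1 had 0.634, 0.748 and 0.424 CPM in EMT6-P and 1.31, 1.5 and 0.352 CPM in EMT6-PTR 1 to 3, with a log2 difference of 0.79 ± 0.59 (SE, n = 3 per group; adjusted p = 0.595, edgeR's quasi-likelihood test). Without EMT6-PTR 3 the difference was 1.21 with an adjusted p of 0.175 in edgeR's quasi-likelihood test. Per Cd3 RNA, Prf1 differed by 0.27 on the log2 scale (exact two-sided permutation test, p = 0.7). Nkg7 had 0.682, 0.561 and 0.613 CPM in EMT6-P and 0.916, 2.45 and 0.391 CPM in EMT6-PTR 1 to 3, a log2 difference of 0.99 ± 0.67 (SE, n = 3 per group; adjusted p = 0.567, edgeR's quasi-likelihood test). That difference was 0.076 without EMT6-PTR 2. The 3 ratios tested by permutation each had an adjusted p of 1.0 over the family of 3.

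Gzma and Gzmk, the pair of tryptases on chromosome 13, were too low to test. Gzma had 10, 3 and 1 counts in EMT6-P 1 to 3 and 2, 9 and 0 counts in EMT6-PTR 1 to 3, and Gzmk had 1, 5 and 3 counts and 2, 9 and 4 counts. In each gene EMT6-PTR 2 had the highest CPM of the EMT6-PTR tumors, 0.501 for both. A difference between the groups was not detectable at this depth.

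Markers of cell types that could carry these transcripts moved in part with them, and their part in the member values was not tested. The 7 T cell markers summed to 9.16, 5.56 and 7.12 CPM in EMT6-P and to 6.72, 19.6 and 7.23 CPM in EMT6-PTR 1 to 3, and all 7 exceeded every parental tumor in EMT6-PTR 2, as did 33.8% of all genes tested. Cd8a and Cd8b1, the chains of the CD8 co-receptor, summed to 1.56, 0.794 and 0.66 CPM in EMT6-P and to 2.4, 5.46 and 1.56 CPM in EMT6-PTR 1 to 3. The 6 NK cell markers summed to 1.12 to 2.39 CPM in the parental and 0.781 to 3.68 CPM in the resistant tumors, with 1 to 3 of the 6 at 0 in each primary tumor. By edgeR's quasi-likelihood test no marker of these 3 lists was called. Cd8a and the T cell marker Cd28 had log2 differences of 1.58 and 1.52, with adjusted p-values of 0.427 and 0.432 by that test. Their groups did not overlap, as was so for 21.3% of all genes tested. The study's deconvolution of its tumor RNA gave lower scores for activated cytotoxic CD8 T cells in EMT6-PTR tumors, a measure other than single marker genes. The same deconvolution gave these tumors higher total immune scores and lower scores for M2 macrophages. Ptprc, the CD45 antigen of all leukocytes, was at 57.8 to 63.6 CPM in EMT6-P and at 83.4, 92.5 and 33.0 CPM in EMT6-PTR 1 to 3.

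Mast cell and basophil markers, 7 in all, were measured because these cells also store granule proteases. They summed to 8.09, 13.2 and 10.0 CPM in EMT6-P and to 10.7, 9.47 and 3.48 CPM in EMT6-PTR 1 to 3, mostly from Kit and Mcpt8. The basophil protease gene Mcpt8 (chr14:56082166-56085273), which starts 177.0 kb beyond Gzmb in the direction of Gzme, was the member of that list with the smallest p. It had 3.66, 7.71 and 1.98 CPM in EMT6-P and 4.54, 0.557 and 0 CPM in EMT6-PTR 1 to 3, the same order as Gzme in all 6 tumors, with a log2 difference of −1.38 ± 1.39 (SE, n = 3 per group; adjusted p = 0.688, edgeR's quasi-likelihood test). The rest of the list, Cpa3, Cma1, Mcpt4, Tpsb2, Ms4a2 and Kit, did not have that order. Ms4a2 had at most 1 count in any primary tumor.

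Serpinb9 was abundant, with close group means and a wide spread among the EMT6-PTR tumors. It had 1390, 1290 and 1493 counts in EMT6-P 1 to 3 and 1558, 1821 and 888 counts in EMT6-PTR 1 to 3, or 67.7, 60.3 and 70.4 CPM and 68.0, 101 and 34.7 CPM. The parental tumors differed by at most 1.17-fold, EMT6-PTR 1 lay among them, EMT6-PTR 2 was 1.53-fold above their mean and EMT6-PTR 3 was 1.91-fold below it. The log2 difference was 0.04 ± 0.36 (SE, n = 3 per group; adjusted p = 0.968, edgeR's quasi-likelihood test), with an approximate 95% interval of −0.67 to 0.75. It was −0.36 without EMT6-PTR 2 and 0.35 without EMT6-PTR 3, so that its sign rested on which of these tumors was included. The study placed Serpinb9 on a list of secretory genes built from several assays of EMT6-P and EMT6-PTR, these RNA data among them, so the list is not independent of the values here. By qRT-PCR the study reported Serpinb9 as increased in EMT6-PTR cell variants kept in culture. Those cells are another kind of sample than the whole tumors measured here.

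Gzmb relative to Serpinb9, the protease over its inhibitor, had log2 CPM ratios of −6.65, −6.64 and −7.56 in EMT6-P and −5.96, −7.17 and −6.58 in EMT6-PTR 1 to 3. The means were −6.95 ± 0.53 (SD, n = 3) and −6.57 ± 0.61 (SD, n = 3), and the values overlapped (difference 0.38, exact two-sided permutation test, p = 0.4). The inhibitor thus had the far larger CPM in each tumor. Since Serpinb9 is also made outside lymphocytes, the ratio does not compare them within a cell.

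Interferon-stimulated genes were set beside Serpinb9 because type I interferon signaling is the subject of the study. Log2 fold changes were positive for 13 of 16 such genes and negative for 3, the median was 0.30, and none was called. In EMT6-PTR 2, the tumor with the highest Serpinb9, 15 of the 16 exceeded all 3 parental tumors, as 33.8% of all genes tested did, with a median of 1.17 above the EMT6-P mean on the log2 scale. The corresponding medians were −0.08 in EMT6-PTR 1 and −0.41 in EMT6-PTR 3, the tumor with the lowest Serpinb9. In the metastasis the median was 0.39, while Serpinb9, at 58.1 CPM, was below all 3 parental tumors. Iigp1, an interferon-inducible GTPase, had 58.5, 29.3 and 47.5 CPM in EMT6-P and 40.6, 190.2 and 80.6 CPM in EMT6-PTR 1 to 3, with a log2 difference of 1.20 ± 0.57 (SE, n = 3 per group; adjusted p = 0.462, edgeR's quasi-likelihood test). Ifit2, Irf7 and Psmb8 had log2 differences of 0.65, 0.75 and −0.42, and their adjusted p-values by edgeR's quasi-likelihood test lay between 0.449 and 0.501. Serpinb9 also moved with Ptprc and with the summed carcinoma markers in EMT6-PTR 3. That tumor had the lowest value of all 3 measures among the primary tumors. Of the carcinoma markers, Krt8 and Krt18 were lowest there, and Krt7 and Epcam were not. The part of Ptprc or of these markers was not tested.

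**Figure D5:**
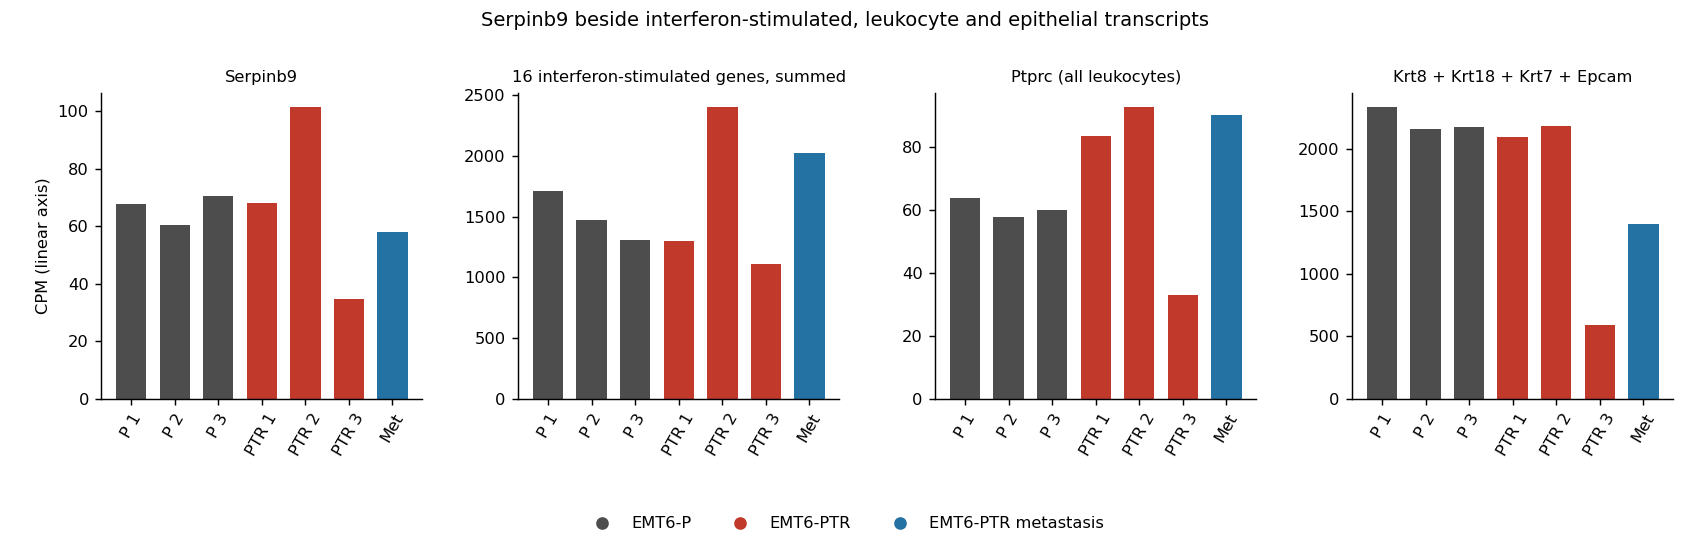
CPM by library, on linear axes that start at 0, for Serpinb9, for 16 interferon-stimulated genes summed, for Ptprc and for 4 epithelial genes summed. EMT6-PTR 2 had the highest bar of the primary tumors for the first 3 measures and EMT6-PTR 3 the lowest for all 4.

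Among 10 relatives of Serpinb9 in serpin clade B, 5 were tested and none was called by edgeR. Serpinb1a, an inhibitor of neutrophil proteases, had the smallest p, with 6.09, 3.46 and 7.12 CPM in EMT6-P and 16.8, 11.3 and 45.9 CPM in EMT6-PTR 1 to 3. Its groups did not overlap (log2 difference 2.15 ± 0.58, SE, n = 3 per group; adjusted p = 0.421, edgeR's quasi-likelihood test), and it was the 1 gene of this list that DESeq2 called. Serpinb6a was lower in all EMT6-PTR tumors, at 265.0, 308.1 and 180.1 CPM against 330.0 to 377.2 CPM, with a log2 difference of −0.52 (adjusted p = 0.437, edgeR's quasi-likelihood test). Serpinb9b had 42.7 CPM in EMT6-PTR 2 against 3.87 to 13.8 CPM in the other primary tumors. Serpinb9c to Serpinb9g were at or near 0 in the parental tumors. Of 6 other inhibitors of granule proteases and lysis, none was called, and the secreted protease inhibitor Cst3 had 5587 CPM in EMT6-PTR 3 against 320.6 to 481.5 CPM in the other primary tumors.

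The machinery that matures and releases granules showed no call among 12 genes, all of them tested, with 4 log2 fold changes above 0, 8 below and a median of −0.01. Lyst, the lysosomal trafficking regulator, had 14.8, 19.0 and 17.9 CPM in EMT6-P and 22.7, 35.8 and 23.2 CPM in EMT6-PTR 1 to 3, without overlap (log2 difference 0.66 ± 0.23, SE, n = 3 per group; adjusted p = 0.427, edgeR's quasi-likelihood test). Ctsw, a cathepsin of cytotoxic lymphocytes, had 25.7 CPM in EMT6-PTR 2 against 3.24 to 7.69 CPM in the other primary tumors. Calr and Stxbp2 had log2 differences of −0.42 and −0.21, both with overlapping groups.

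Of 8 other killing ligands and cytokines, 5 were tested and none was called, with a median log2 fold change of 0.08. The death ligand gene Tnfsf10 had the smallest p, with 2.92, 1.54 and 0.896 CPM in EMT6-P and 3.23, 5.24 and 2.38 CPM in EMT6-PTR 1 to 3, and a log2 difference of 1.01 ± 0.53 (SE, n = 3 per group; adjusted p = 0.485, edgeR's quasi-likelihood test). Ccl5, Ccl3 and Ccl4, chemokines of activated lymphocytes and myeloid cells, had log2 differences of 0.44, −0.51 and −0.42. Fasl and Ifng, with at most 0.520 CPM in any library, were not tested. Among 8 transcription factors of cytotoxic lymphocytes, 5 were tested and none was called. Tcf7, Prdm1, Zeb2 and Id2 had log2 differences of 0.32, −0.34, 0.09 and −0.05, Tbx21 and Eomes had at most 0.719 CPM, and Zfp683 had 0 counts in all 7 libraries.

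The EMT6-PTR metastasis, a single library without a replicate check, combined higher levels of 5 members with very low Gzmc, Gzmd and Gzme. Gzma, Gzmb, Gzmk, Prf1 and Nkg7 had 1.36, 1.20, 0.560, 1.84 and 3.48 CPM. Each value was above all 3 EMT6-PTR tumors and above all 6 primary tumors. For each of these 5 genes, however, the exact Poisson interval overlapped that of the highest EMT6-PTR tumor. Gzmk had 14 counts in the metastasis and 9 in EMT6-PTR 2, and Gzmb had 30 in the metastasis and 23 in EMT6-PTR 1. Among all genes tested, 25.8% lay above all 3 EMT6-PTR tumors and 20.9% above all 6 primary tumors. The folds over the EMT6-PTR mean were 6.93 for Gzma, 2.78 for Nkg7, 2.25 for Gzmk, 1.9 for Gzmb and 1.74 for Prf1.

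Gzmc and Gzme had 0 counts in the metastasis. Against the EMT6-P means and a floor of 3 counts in that library, Gzmc was at least 23.5-fold lower and Gzme at least 132-fold lower. Gzmd had 1 count, 0.040 CPM with an exact 95% interval of 0.00101 to 0.223 CPM, and Gzmf had 5 counts, or 0.200 CPM. Gzmc, Gzme and Gzmf lay below all 3 EMT6-PTR tumors, where 29% of all genes tested did (24.1% below all 6 primary tumors). Gzmf had 4 counts, or 0.223 CPM, in EMT6-PTR 2, so its place rested on library scaling. In EMT6-PTR 3, Gzmc and Gzme had 6 and 4 counts. For all 3 genes the exact 95% interval overlapped that of the lowest EMT6-PTR tumor. Gzmc, Gzmd and Gzme made up 1.19% of the CPM of the 7 granzymes there.

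Serpinb9, at 58.1 CPM in the metastasis, was within the range of the EMT6-PTR tumors and differed by −0.096 from the mean of their log2 CPM (0.854-fold their mean CPM), a value that uses the same 3 EMT6-PTR tumors as the comparison with EMT6-P. The log2 ratio of Gzmb to Serpinb9 was −5.5, higher than in any primary tumor. Relative to the Cd3 genes, Gzmb and Prf1 had log2 ratios of −1.97 and −1.39, lower than in any primary tumor. These ratios leaned on Cd3d, which was 15.0-fold its EMT6-PTR mean, against 2.63-fold for Cd3e and 2.53-fold for Cd3g. Ratios without Cd3d were not computed, so this ranking may rest on that gene. The Cd3 genes summed to 17.5 CPM, of which Cd3d had 10.7 CPM, and Cd8a and Cd8b1 summed to 3.8 CPM, between EMT6-PTR 1 and 2. NK cell markers summed to 2.36 CPM, within the primary range, and Ptprc was at 90.0 CPM. The 8 killing ligands and cytokines summed to 421 CPM, against 13.5 to 39.3 CPM in the primary tumors, largely Ccl3 (201.7 CPM), Tnf (130.9 CPM) and Ccl4 (70.9 CPM). The high lung and neutrophil transcripts of this library moved with these values, and their part was not tested.

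The genes whose pattern was most like that of Gzmb were found by the root mean square difference of log2 CPM over the 7 libraries, after each gene's mean was subtracted. They were Lrp2bp and Dusp16 (both 0.17), Plcb2 (0.22), and Serpini1 and Gm9797 (both 0.24), of which Dusp16 is a phosphatase of MAP kinases and Plcb2 a phospholipase C of blood cells. For Serpinb9 they were Stk10 (0.10), 2500002B13Rik and Ang (both 0.13), and Fyb and Rbbp8 (both 0.14). Stk10 is a kinase of lymphocytes and Fyb an adaptor protein of T cells and myeloid cells. Stk10 had 37.5, 35.6 and 38.5 CPM in EMT6-P, 40.8, 48.6 and 17.9 CPM in EMT6-PTR 1 to 3 and 32.0 CPM in the metastasis, which is the order of Serpinb9 at its highest and lowest tumors. For Gzme, a comparison added after its values were seen, the nearest was Gzmd (0.48), followed at a distance by Mmp10 (0.86), Mcpt8 and Prokr2 (both 1.13) and Grem1 (1.14). With 7 libraries and 15645 genes, such likeness is a description of these samples.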

How the data were processed

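RNA of 3 EMT6-P tumors, 3 EMT6-PTR tumors and 1 EMT6-PTR metastasis was sequenced from stranded polyadenylated libraries. Per the submitters' notes and methods, the authors used FastQC 0.11.5, STAR 2.6.0a (GRCm38, GENCODE M16) and RSEM 1.3.1. The deposited values are RSEM estimated counts per gene, neither filtered nor normalized, and 13.5% to 15.6% of them per library were fractional. RSEM divides reads shared by near-identical genes, which touches Gzmd and Gzme.

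The 10 members, the gene lists and the tests were chosen with earlier results of these data known. Symbols and positions came from GENCODE M21 and upstream sequences from RefSeq (GRCm38.p6), which matched all 10. Of 53465 gene identifiers, 191 had no symbol. After rounding of the estimated counts, low genes were removed with filterByExpr, upper-quartile factors were applied, and 3 EMT6-PTR were compared with 3 EMT6-P tumors by edgeR 4.0.16's quasi-likelihood test in R 4.3.3, with Benjamini-Hochberg adjustment over all genes and a threshold of 0.05. Standard errors are the log2 fold change over the square root of F, and approximate intervals are 1.96 of them either side. These intervals are narrower than the test implies. That of Serpinb6a, −0.95 to −0.09, left out 0 at an unadjusted p of 0.0504 by edgeR's quasi-likelihood test. Ratios used a prior count of 2 and exact two-sided permutation tests over 20 arrangements. Counting intervals are exact Poisson intervals, which cover counting error only, as do floors of 3 counts. The metastasis was not tested. Upstream identities came from Biopython 1.88 alignments.

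All 10 members are named. Of each list up to 4 genes are named by the smallest p, as are the 5 genes most like Gzmb and Serpinb9. Other named genes were chosen after their values were seen, among them marker genes, Serpinb9b to Serpinb9g, the untested ligands and transcription factors, and CT010467.1. Alternatives were TMM scaling, DESeq2 1.42.0, limma-voom (limma 3.58.1), no filter or at least 10 counts in every tumor, the metastasis as another group, the replicate number as a block, prior counts of 0.5, and leaving out each tumor. Summing Gzmd with Gzme and removing CT010467.1 were added after the data were seen. The fits were tried on simulated counts in which 200 genes had been changed. When the simulated dispersion was 0.1, edgeR found 94.5% of the changed genes, DESeq2 93.5% and limma-voom 91.5%. The shares fell to 3.5%, 28.5% and 3.5% when it was 0.3. At that setting DESeq2 also made 19 false calls, and edgeR and limma-voom made 0. The changed genes were drawn above a floor on mean counts that several members did not reach. The common dispersion of the tumors was 0.14, between these settings, and 0.246 among EMT6-PTR tumors alone. Real changes may therefore have gone uncalled.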

Additional observations from a re-analysis of the deposited data

How the results depend on the processing

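No alternative called a member between EMT6-PTR and EMT6-P tumors, with adjusted p-values from 0.175 (Prf1 without EMT6-PTR 3) to 0.992 over the alternatives. Over all genes, edgeR and limma-voom called 0 in each alternative and DESeq2 called 281. Of 112 alternative log2 fold changes of the 8 members, 107 had the sign given in the report. The 5 others were Serpinb9 with limma-voom (−0.096), with the replicate number as a block (−0.085), without EMT6-P 2 (−0.025) and without EMT6-PTR 2 (−0.36), and Gzmb without EMT6-PTR 1 (−0.086). Leaving out 1 tumor at a time gave 0 to 0 calls and log2 fold changes of −0.086 to 0.82 for Gzmb, −2.51 to −0.048 for Gzmc, −3.52 to −0.13 for Gzmd, −3.72 to −0.24 for Gzme, 1.08 to 2.59 for Gzmf, 0.076 to 1.42 for Nkg7, 0.46 to 1.21 for Prf1 and −0.36 to 0.35 for Serpinb9. The log2 ratio differences ranged from 0.075 to 0.68 for Gzmb to Serpinb9, from −0.68 to 0.72 for Gzmb to the Cd3 genes and from −0.30 to 0.70 for Prf1 to the Cd3 genes. Of these, Gzmb to the Cd3 genes turned negative without EMT6-P 3 (−0.29), EMT6-PTR 1 (−0.68) or EMT6-PTR 3 (−0.015), and Prf1 to the Cd3 genes without EMT6-PTR 1 (−0.30). Serpinb9 in the metastasis was 0.26 above the EMT6-PTR mean without EMT6-PTR 2, in a leave-one-out range of −0.52 to 0.26. The cause of these differences was not tested.

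The deviations of same-numbered EMT6-P and EMT6-PTR tumors correlated at 0.26, 0.25 and 0.038, the labels tie the numbers to no shared mouse or day, and EMT6-P 3 correlated best with EMT6-PTR 1, so the numbers were not taken to pair the tumors. With the replicate number as a block, 0 genes and 0 members were called, as without it, and the log2 fold changes of Gzmc, Gzmd and Gzme were −1.47, −2.56 and −2.66.

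Gzma, Gzmb, Gzmf, Gzmk, Prf1 and Nkg7 had under 50 counts in each primary tumor, which limits their precision. Gzmf was not tested without EMT6-PTR 1 or without CT010467.1, and only Nkg7 and Serpinb9 had at least 10 counts in every tumor. The spread was larger among EMT6-PTR tumors (common dispersion 0.246) than among EMT6-P tumors (0.0266).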

Other observations

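Mmp10, which encodes the matrix metalloproteinase stromelysin-2 and was the nearest gene to Gzme after Gzmd, had 36.1, 111 and 23.8 CPM in EMT6-P 1 to 3, 39.5, 25.3 and 0.391 CPM in EMT6-PTR 1 to 3, and 0.36 CPM in the metastasis. Grem1, a secreted antagonist of bone morphogenetic proteins, had 40.4, 102 and 67.8 CPM, 77.0, 76.3 and 3.44 CPM, and 0.44 CPM in the same order. Both were at their lowest in the 2 libraries in which Gzmd had a single count, and neither was low in EMT6-PTR 2 to the extent that Gzme was. These genes were found by their likeness to Gzme after its values were seen, so no test is given. The study's preliminary list of secretory genes downregulated in EMT6-PTR holds Mmp10, Grem1 and Mcpt8. It drew on these RNA data and is not independent of the values here.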
